A study of Drosophila melanogaster with 12 samples.

Results

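Histone H3.3 and the proteins that carry it and the other histones to DNA are encoded by 9 genes considered here. These are the H3.3 genes His3.3A and His3.3B, Hira and yem of the HIRA complex, XNP, asf1, and the CAF-1 subunit genes Caf1-180, Caf1-105 and Caf1-55. The genes were listed by name for their role and not for their accessibility, out of 13968 protein-coding genes of the fly. Earlier results of these data were known when the list was made. Every ATAC-seq peak that overlapped the span of one of them, extended by 1 kb on each side, was taken in each of 12 libraries. This gave 78 peaks out of 89676 in all libraries. Of these, 63 touched a promoter window (1 kb either side of an annotated transcription start site, TSS), 7 lay in a gene body outside that window and 8 lay in the 1 kb beyond a gene. All 9 genes had a promoter peak in at least 1 library, and none had one in all 12.

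Chromatin accessibility was profiled in Drosophila melanogaster embryos by ATAC-seq, in which a transposase cuts and tags DNA that nucleosomes do not cover, and each group had 2 libraries. At 0.5 to 1.5 h and at 2 to 3 h, M-Z+ HIRA mutant embryos, which lacked the maternal product and are labelled as carrying the zygotic copy, were set beside wild-type embryos labelled as their control. At 0.5 to 1.5 h only, M-Z+ dPCIF1 mutant embryos were set beside a wild-type set of their own, and wild-type embryos were of the w1118 strain. dPCIF1 is the fly relative of PCIF1, which methylates the capped end of mRNAs in mammals. Both mutants carried null alleles made with CRISPR/Cas9, and each library was a pool of hand-selected embryos, with more embryos per pool at the early stage. Which of the alleles was used in a library was not given in the labels. Embryos were staged by time after egg laying, so that a change at the same nuclear cycle and a change in the cycle reached cannot be told apart.

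H3.3 differs from the canonical histone H3 in a few residues and is placed into chromatin outside DNA replication, mainly by the HIRA complex and, at other sites, by the fly orthologue of ATRX, XNP. CAF-1 places canonical H3 and H4 behind the replication fork, and Asf1 hands H3-H4 dimers to both routes. In the early fly embryo, HIRA supplied by the mother is known for assembling H3.3 nucleosomes on the paternal chromatin after fertilisation, and the first nuclear cycles run on maternal stores of histones and chaperones. An accessible promoter in these embryos therefore need not mean that the gene's product was being newly made.

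The promoters of 5 of these genes are shown, the 4 that hold a DRE, the motif of the housekeeping factor DREF, and that of His3.3A, the only one of the 9 genes with a peak in both dPCIF1 controls and in neither dPCIF1 mutant. Each runs 5′ to 3′ on the gene's strand from 250 bp before to 50 bp after the start and was read from the Release 6 (dm6) reference. Capitals mark the letters TATCGAT on either strand.
Hira promoter (chrX:7721869-7722168, + strand): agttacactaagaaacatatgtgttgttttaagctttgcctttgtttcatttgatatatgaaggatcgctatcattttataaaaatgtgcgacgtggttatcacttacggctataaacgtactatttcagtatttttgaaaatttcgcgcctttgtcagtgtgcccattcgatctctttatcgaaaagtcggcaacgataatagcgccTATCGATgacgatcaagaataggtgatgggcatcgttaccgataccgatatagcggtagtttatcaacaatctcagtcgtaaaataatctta
Caf1-180 promoter (chrX:8606255-8606554, − strand): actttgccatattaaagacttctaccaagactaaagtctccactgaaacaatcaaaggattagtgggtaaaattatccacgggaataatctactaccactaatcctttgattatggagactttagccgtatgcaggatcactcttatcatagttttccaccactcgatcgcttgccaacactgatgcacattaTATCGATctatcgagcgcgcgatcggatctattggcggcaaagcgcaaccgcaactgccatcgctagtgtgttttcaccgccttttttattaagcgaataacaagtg
Caf1-55 promoter (chr3R:15225326-15225625, + strand): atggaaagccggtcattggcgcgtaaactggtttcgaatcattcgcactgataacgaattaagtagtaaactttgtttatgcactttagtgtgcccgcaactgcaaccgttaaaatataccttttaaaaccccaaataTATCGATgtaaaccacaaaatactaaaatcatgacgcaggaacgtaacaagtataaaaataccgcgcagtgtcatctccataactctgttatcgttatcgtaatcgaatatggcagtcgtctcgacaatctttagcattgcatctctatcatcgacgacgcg
XNP promoter (chr3R:25482785-25483084, − strand): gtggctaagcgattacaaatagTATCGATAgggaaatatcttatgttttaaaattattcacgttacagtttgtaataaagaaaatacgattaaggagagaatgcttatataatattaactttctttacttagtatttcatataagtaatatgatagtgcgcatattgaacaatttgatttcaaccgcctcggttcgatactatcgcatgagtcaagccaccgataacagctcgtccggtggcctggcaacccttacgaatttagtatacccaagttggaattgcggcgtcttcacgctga
His3.3A promoter (chr2L:5054808-5055107, + strand): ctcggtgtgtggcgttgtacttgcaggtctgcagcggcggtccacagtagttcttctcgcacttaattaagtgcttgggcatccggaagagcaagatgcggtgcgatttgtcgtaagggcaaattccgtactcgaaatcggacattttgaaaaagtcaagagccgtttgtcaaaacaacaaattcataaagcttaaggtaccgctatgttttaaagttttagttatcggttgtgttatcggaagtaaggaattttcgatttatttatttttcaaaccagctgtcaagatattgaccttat
TATCGAT was found in the promoters of 4 of the 9 genes and in 18.2% of the 13968 promoters read in the same window. With the TSS at 0, it began 42 bp upstream in Hira, 57 bp upstream in Caf1-180 and 112 bp upstream in Caf1-55. In XNP it began 228 bp upstream, where the letters read on both strands overlap and give the longer run in capitals. The letters GAGAGAG, bound by GAGA factor, were in 5.86% of promoters, and CAGGTAG, bound by Zelda, in 1.64%. Neither was in any of these 9 windows, each of which lies at the outermost start of its gene. The intron and upstream peaks of His3.3B described below are outside its window and were not searched. The same holds for the yem peaks and for the asf1 sites on either side of its start. The M1BP motif, GGTCACACT, was in 6.04% of promoters and in 1 of the 9, Caf1-105, at 5 to 13 bp downstream of the start. A match is a description of the letters only.

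A stretch inside Hira is shown because peaks recurred there. It is the part that all 4 gene-body peaks of Hira had in common, 246 bp of protein-coding sequence in exon 2 of 5. It held none of the 4 motifs, so no letters are in capitals.
Hira exon 2 segment (chrX:7723848-7724093, + strand): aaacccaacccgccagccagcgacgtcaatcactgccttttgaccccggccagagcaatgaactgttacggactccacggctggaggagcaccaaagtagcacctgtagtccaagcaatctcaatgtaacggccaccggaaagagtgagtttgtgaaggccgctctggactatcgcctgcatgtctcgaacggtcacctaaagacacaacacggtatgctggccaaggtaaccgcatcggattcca

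The depth of the libraries is unknown, since the lists hold positions and no read counts. The lists ran from 1505 to 11432 peaks, the early HIRA mutants having the shortest with 1505 and 2399. In the early HIRA controls, 3 and 4 of the 9 genes had a promoter peak, while 19.2 and 22.1% of all protein-coding genes had one. In the early HIRA mutants, 0 and 0 of the 9 did, where the share of all genes was 4.87 and 7.81%. At 2 to 3 h the controls had 6 and 6 (39.9 and 37.3% of all genes), and the HIRA mutants 5 and 3 (31.5 and 22.6%). The 2 to 3 h controls had lists of 11432 and 9998 peaks, longer than those of the dPCIF1 controls with 7534 and 7814. The dPCIF1 controls had 7 and 5 (26.8 and 27.6% of all genes), and the dPCIF1 mutants 7 and 8 (37.3 and 41.1%). Mutant replicate 2 had the most of any library, among the 9 and among all genes. The 9 genes lay above the share of all genes in each library except the early HIRA mutants. A promoter shared with a divergent neighbour (an opposite start within 500 bp) was present in 6 of the 9 (66.7%) and in 24.9% of all genes. Its part in the higher share was not tested.

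**Figure D1:**
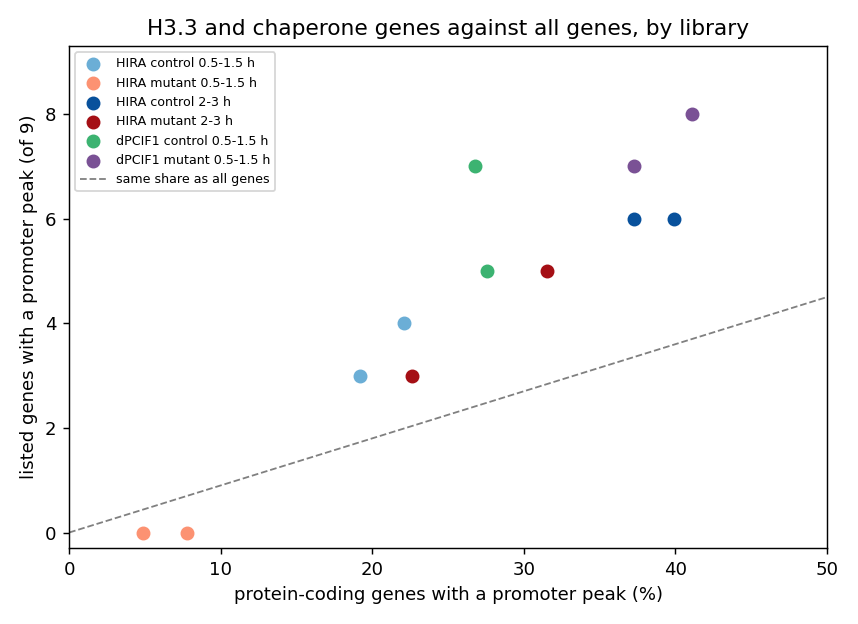
Number of the 9 H3.3 and chaperone genes with a promoter peak in each library (y axis) against the percentage of 13968 protein-coding genes with one (x axis). Each point is a library, coloured by group, and the dashed line marks equal shares. The early HIRA mutants lie at 0 genes and the dPCIF1 mutants at 7 and 8.

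Most of the peaks were of middling size. The 63 promoter peaks were 200 to 775 bp wide with a median of 333 bp, and 38 of them covered a start site. Ranked by width within their own library, the 78 peaks had a median percentile of 44.4. Only 8 were above the 75th percentile, and 49 were below the 50th. Promoter coverage below is the number of base pairs of the promoter window that peaks covered, and replicates are given in the order 1 and 2.

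**Figure D2:**
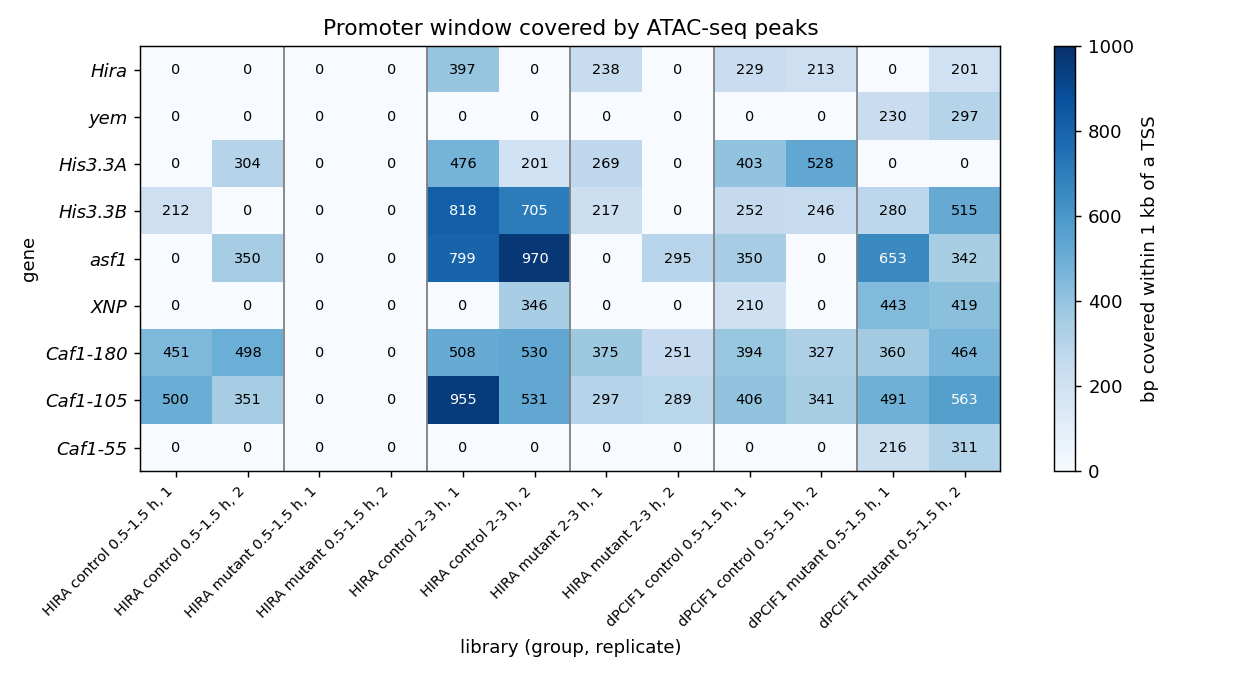
Base pairs of the promoter window (1 kb either side of each TSS) covered by peaks, for each gene (rows) and library (columns, 2 per group). Caf1-180 and Caf1-105 are covered in 10 of the 12 libraries, yem and Caf1-55 only in the 2 dPCIF1 mutants, and the early HIRA mutants are at 0 throughout.

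His3.3A and His3.3B encode the same H3.3 protein from different chromosomes and were open in different places. His3.3A (FBgn0014857, chr2L:5055058-5056149, + strand) had promoter peaks in 6 libraries. Its coverage was 0 and 304 bp in the early HIRA controls and 0 in both early HIRA mutants. At 2 to 3 h it was 476 and 201 bp in the controls and 269 and 0 bp in the HIRA mutants. Each pair of groups overlapped. In the dPCIF1 set it was 403 and 528 bp in the controls and 0 in both mutants, with no overlap. This is a difference of -465.5 bp (controls 465.5 ± 88.4, SD, n = 2, exact permutation test, p = 0.333). His3.3A was the only one of the 9 genes with a peak in both dPCIF1 controls and in neither mutant, although the mutant lists were longer. With the early HIRA controls as the reference instead it was no longer in that class, because 1 of them had no peak there either. In each library the first peak began close to the start, from 10 bp upstream to 101 bp downstream of the outermost TSS, and the start of the divergent gene CG14036 lies 42 bp away. A peak there cannot be assigned to either gene of the pair.

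The accessible site of His3.3B (FBgn0004828, chrX:9152523-9156669, − strand) was not at its outermost start but in an intron. The peaks there fell between 607 and 976 bp downstream of the outermost of 3 annotated TSSs, their midpoints 213 to 292 bp upstream of the next start. All 8 libraries with a His3.3B promoter peak had this one. A second region, 427 to 798 bp upstream of the outermost start, was a peak in both 2 to 3 h controls and in no other library. Replicate 1 of these controls also had a 213 bp intron peak, 205 to 417 bp downstream of that start. The outermost start itself was covered once, by a 200 bp peak in dPCIF1 mutant replicate 2, which is as narrow as any peak of these genes.

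Coverage of the His3.3B window was 212 and 0 bp in the early HIRA controls and 0 in both early HIRA mutants. The 2 to 3 h controls had 818 and 705 bp and the HIRA mutants 217 and 0 bp. Both late mutants thus lay below both controls, a mean difference of -653 bp (761.5 ± 79.9 against 108.5 ± 153 bp, SD, n = 2, exact permutation test, p = 0.333). The dPCIF1 controls had 252 and 246 bp and the mutants 280 and 515 bp, so that both mutants lay above both controls, by 148.5 bp (exact permutation test, p = 0.333). That difference rests mainly on the 200 bp peak of replicate 2, and without that library it was 31 bp. The intron peaks alone were 252 and 246 bp wide in the controls and 280 and 315 bp in the mutants. With 2 libraries in a group, 0.333 is the smallest p this exact test can give, so no difference in promoter coverage here can pass 0.05. The values and the overlap of the groups carry each comparison.

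**Figure D3:**
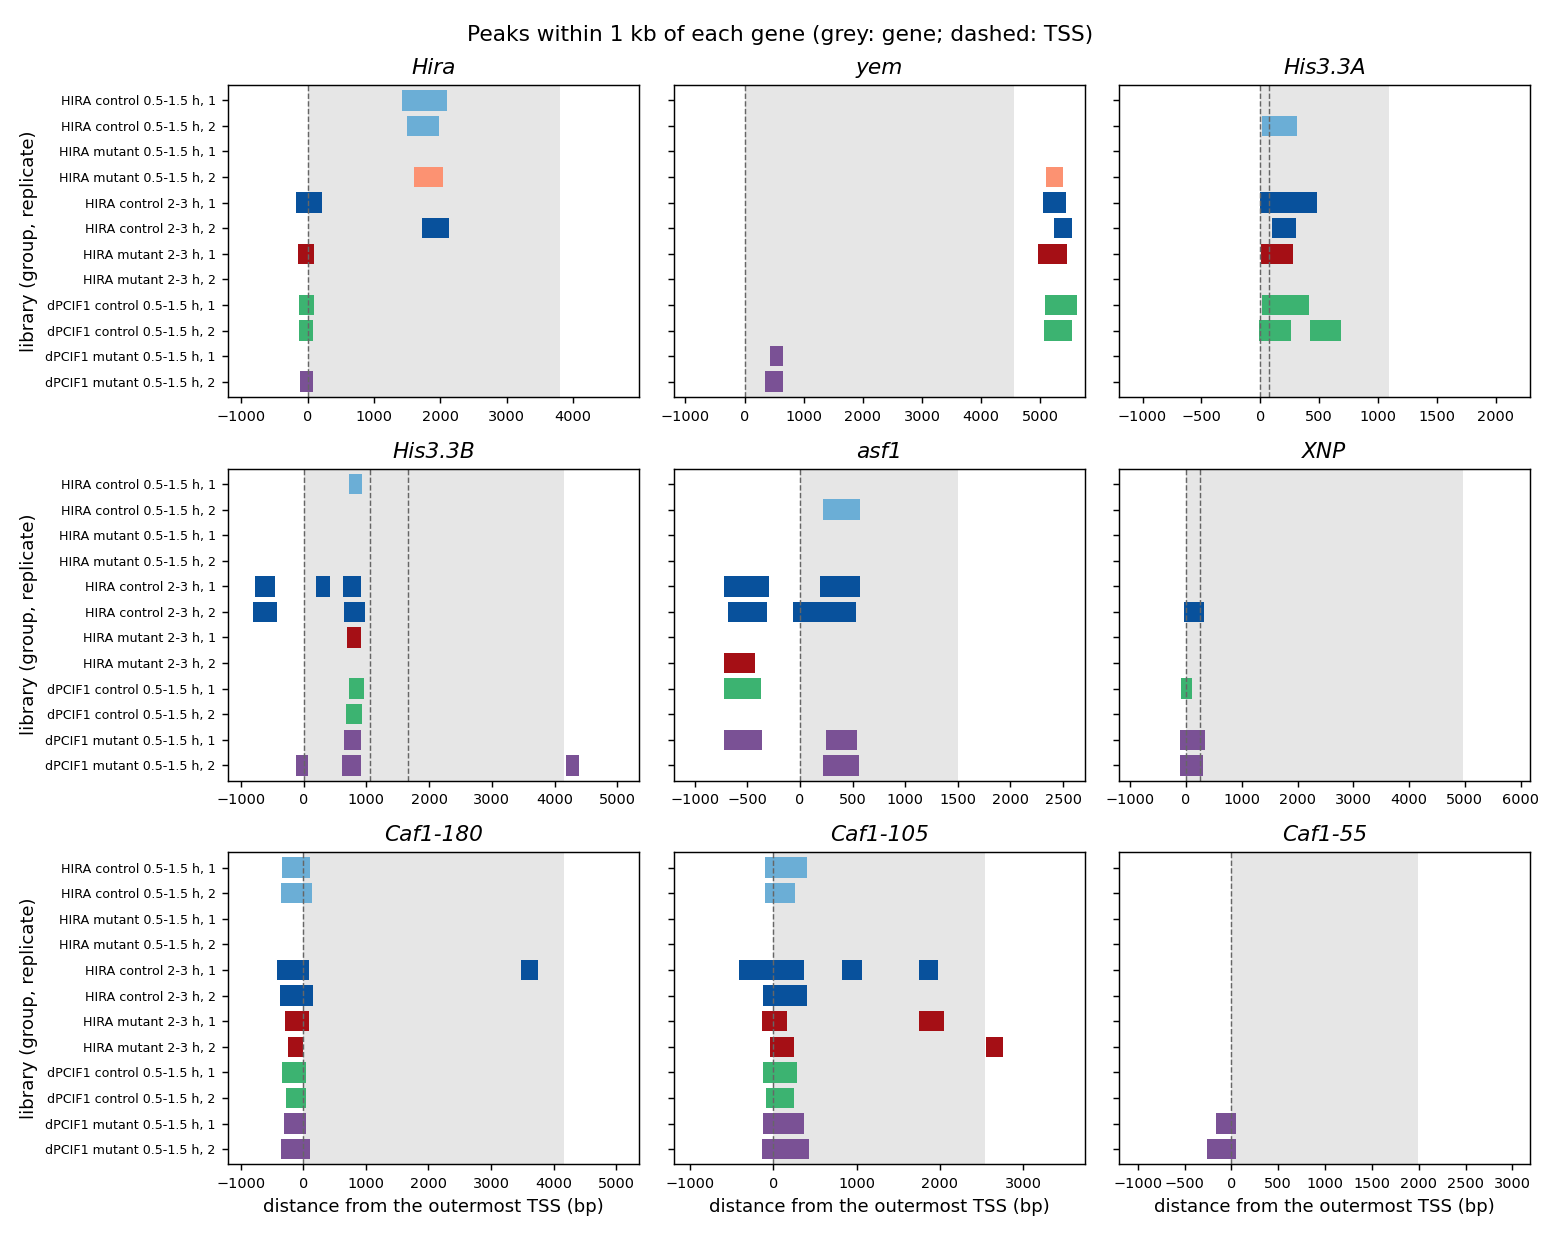
Position of every peak within 1 kb of each gene. The x axis is the distance from the outermost TSS in bp along the direction of transcription, rows are libraries coloured by group, grey marks the gene and dashed lines mark annotated starts. The Hira exon 2 peaks appear at 1414 to 2125 bp and its start-site peaks around 0, never in the same library.

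Hira (FBgn0022786, chrX:7722119-7725917, + strand), which encodes the chaperone whose maternal product was removed, was accessible either at its start or inside exon 2, and in no library at both. Start-site peaks were found in 5 libraries, with coverage of 397 bp in replicate 1 of the 2 to 3 h controls, 238 bp in replicate 1 of the 2 to 3 h HIRA mutants, 229 and 213 bp in the dPCIF1 controls and 201 bp in replicate 2 of the dPCIF1 mutants. The other 7 libraries had 0. All 5 peaks covered the TSS and the DRE, reaching from 176 bp upstream to 220 bp downstream at most. They were narrow for their libraries, the width percentiles running from 1.92 to 54.4.

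Exon 2 peaks of Hira were found in 4 libraries. They were 686 and 477 bp wide in the early HIRA controls, 433 bp in replicate 2 of the early HIRA mutants and 397 bp in replicate 2 of the 2 to 3 h controls. Each lay wholly within exon 2, which spans 241 to 2147 bp downstream of the start. The 686 bp peak was at the 93.3rd percentile of width in its library, and the narrowest at the 53.4th. None of the 4 dPCIF1-set libraries had a peak there. The early wild-type sets of the same age thus differed, the HIRA controls having the exon 2 peak and no start-site peak in both replicates, and the dPCIF1 controls the reverse. The same exon was covered in an early HIRA mutant library that had 2 peaks near these 9 genes in all.

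Promoter coverage of Hira was 0 in all 4 early libraries of the HIRA set, and the 2 to 3 h controls (397 and 0 bp) overlapped the mutants (238 and 0 bp). In the dPCIF1 set both mutants (0 and 201 bp) lay below both controls (229 and 213 bp), a mean difference of -120.5 bp (221 ± 11.3 against 100.5 ± 142 bp, SD, n = 2, exact permutation test, p = 0.333). The sign turned with the early HIRA controls as reference, to 100.5 bp, since those had no start-site peak (exact permutation test, p = 1). Where the null alleles lie within Hira was not mapped here, and the part of the altered sequence in the values of the HIRA mutants was not tested. The presence of a peak is no measure of the maternal product and does not check the labels.

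The yemanuclein gene yem (FBgn0005596, chr3R:29118330-29122879, − strand), which encodes the partner of HIRA, had no peak over its TSS in any library. Both dPCIF1 mutants had a peak in its promoter window, of 230 and 297 bp, and the other 10 libraries had 0. These peaks lay 347 to 651 bp downstream of the start, in an exon outside the coding sequence. A different site, 413 to 1075 bp beyond the 3′ end of the gene, was a peak in 6 libraries. It was 549 and 476 bp wide in the dPCIF1 controls, 379 and 292 bp in the 2 to 3 h HIRA controls, 489 bp in replicate 1 of the 2 to 3 h HIRA mutants and 299 bp in replicate 2 of the early HIRA mutants. Neither dPCIF1 mutant had it. The site and the promoter window of yem were thus never peaks in the same library. Among regions found in both dPCIF1 controls, 9.78% were touched by no peak of either mutant. The nearest start of another gene, Atg14, was 1104 to 1282 bp from the middle of these peaks.

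XNP (FBgn0039338, chr3R:25477868-25482834, − strand), the ATRX orthologue, was covered in 4 libraries. Coverage was 346 bp in replicate 2 of the 2 to 3 h HIRA controls, 210 bp in replicate 1 of the dPCIF1 controls, and 443 and 419 bp in the dPCIF1 mutants. The other 8 libraries, all 4 of the HIRA mutants among them, had 0. Both dPCIF1 mutants lay above both controls (431 ± 17.0 against 105 ± 148 bp, SD, n = 2, exact permutation test, p = 0.333). All 4 peaks covered at least 1 of the start sites, and the divergent gene CG5116 starts within 264 bp.

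The asf1 gene (FBgn0029094, chr3L:19618894-19620398, + strand) had a site on each side of its start and, in all but 1 library, none on it. The upstream site, 298 to 725 bp before the start, lies near the divergent gene l(3)76BDm, and the downstream site, 194 to 567 bp after the start, reaches into coding sequence. Coverage was 0 and 350 bp in the early HIRA controls and 0 in both early HIRA mutants. At 2 to 3 h it was 799 and 970 bp in the controls, replicate 2 having the highest coverage of any of the 9 genes, and 0 and 295 bp in the HIRA mutants. Both mutants lay below both controls, a difference of -737 bp (884.5 ± 121 against 147.5 ± 209 bp, SD, n = 2, exact permutation test, p = 0.333). The 1 remaining mutant peak was the upstream one, and the downstream site was a peak in both late controls and in neither late mutant. The dPCIF1 groups overlapped, with 350 and 0 bp in the controls and 653 and 342 bp in the mutants. There the downstream site was a peak in both mutants and in neither control.

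The 2 large subunits of CAF-1 had the most constant promoters of the list. Caf1-180 (FBgn0030054, chrX:8602137-8606304, − strand), with a DRE and no divergent neighbour within 500 bp, was covered in 10 libraries, and each of its promoter peaks covered the TSS. Coverage was 451 and 498 bp in the early HIRA controls and 0 in both early HIRA mutants, a difference of -474.5 bp (exact permutation test, p = 0.333). It was 508 and 530 bp in the 2 to 3 h controls and 375 and 251 bp in the mutants, a difference of -206 bp with no overlap (519 ± 15.6 against 313 ± 87.7 bp, SD, n = 2, exact permutation test, p = 0.333). The dPCIF1 controls had 394 and 327 bp and the mutants 360 and 464 bp, which overlapped. In the controls of the HIRA set the late libraries lay above the early ones by only 44.5 bp, and in a window of 250 bp either side of the start by -3 bp.

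Caf1-105 (FBgn0033526, chr2R:10466001-10468540, − strand) was also covered in 10 libraries, by a peak over the TSS each time. Its coverage was 500 and 351 bp in the early HIRA controls and 0 in both early HIRA mutants, a difference of -425.5 bp (exact permutation test, p = 0.333). The 2 to 3 h controls had 955 and 531 bp, and the mutants 297 and 289 bp. The late mutants lay below both controls (743 ± 300 against 293 ± 5.66 bp, SD, n = 2, exact permutation test, p = 0.333). In the dPCIF1 set the order was the opposite, with 406 and 341 bp in the controls and 491 and 563 bp in the mutants (373.5 ± 46.0 against 527 ± 50.9 bp, SD, n = 2, exact permutation test, p = 0.333). The start of the divergent gene CG11777 lies 76 bp away, and its share in the peak cannot be told apart. Gene-body peaks of 225 and 297 bp were found in replicate 1 of the 2 to 3 h controls and mutants.

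Caf1-55 (FBgn0263979, chr3R:15225576-15227564, + strand), the smallest subunit, is shared with several other chromatin complexes. It was covered only in the dPCIF1 mutants, by peaks of 216 and 311 bp over the TSS and the DRE, against 0 in the other 10 libraries. The start of the divergent gene CG31344 lies 247 bp away, and its share in these peaks cannot be told apart. The groups did not overlap in the dPCIF1 set (263.5 ± 67.2 bp in the mutants, SD, n = 2, exact permutation test, p = 0.333). Both peaks were narrow for their libraries, at the 7.95th and 35.6th percentile of width. Of the 4 genes with a DRE, Caf1-180 was thus covered in 10 libraries, Hira in 5, XNP in 4 and Caf1-55 in 2. The 5 genes without one covered the same range, from 10 libraries for Caf1-105 and 8 for His3.3B to 7 for asf1, 6 for His3.3A and 2 for yem.

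**Figure D4:**
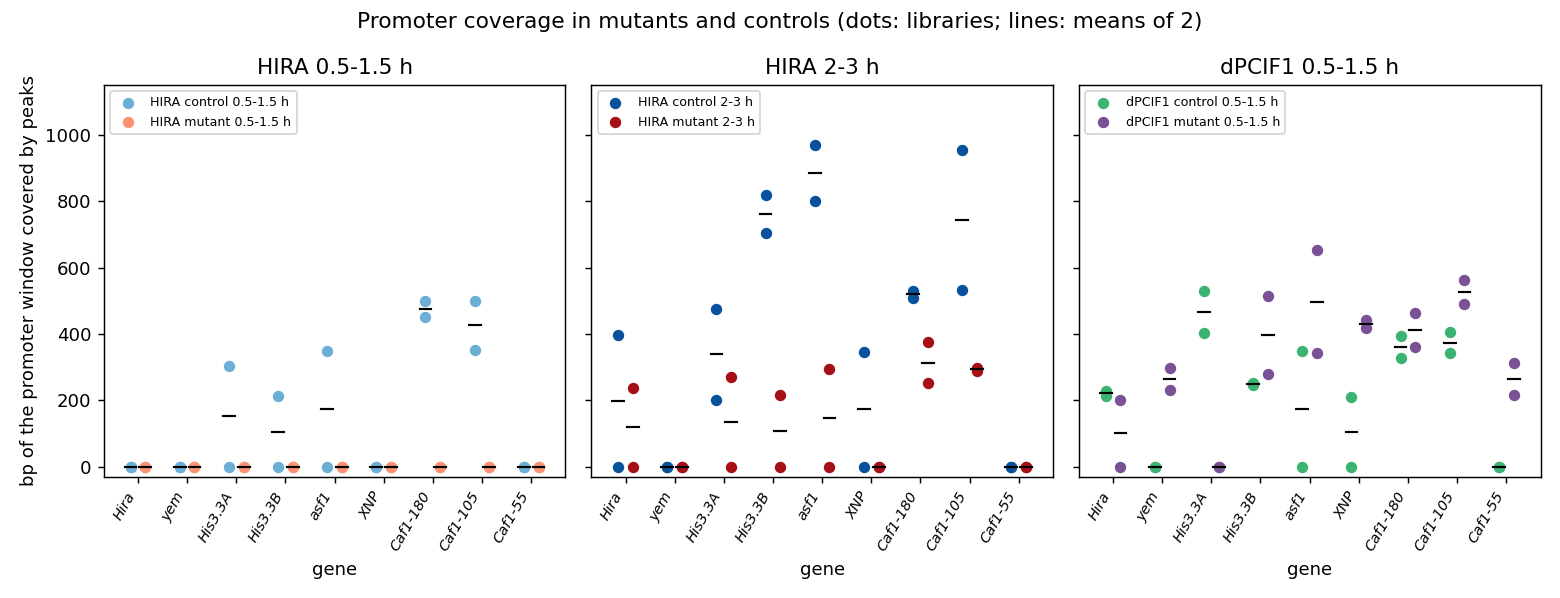
Base pairs of the promoter window covered by peaks (y axis) for each gene in the 3 comparisons of mutants with their own controls. Dots are libraries and lines are means of 2. In HIRA mutants no gene has both libraries above both controls, whereas in dPCIF1 mutants 5 genes do and Hira and His3.3A lie below.

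Taking the 9 genes through the comparison of early HIRA mutants with controls, 2 (Caf1-180 and Caf1-105) had a peak in both controls and in neither mutant. This pattern held for 7.81% of the 13968 genes. The reverse was seen for 0 of the 9 and for 0.0716% of all genes. Both mutants were below both controls for the same 2 genes and for 13.0% of all genes, and above for 0 of the 9 and for 0.186% of all. A gene counted as lost only if both controls had it, and without control replicate 1 the count was 4, adding His3.3A and asf1. With the dPCIF1 controls as reference it was 5, namely Hira, His3.3A, His3.3B, Caf1-180 and Caf1-105. Those controls had longer lists (7534 and 7814 peaks), and the share of all genes under these alternatives was not counted. Caf1-180 alone remained among the lost when the 1505 widest peaks of each library were used.

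In the 2 to 3 h comparison none of the 9 genes went from both controls to neither HIRA mutant, where 6.90% of all genes did, and none went the other way (0.938% of all). Both mutants were below both controls for 4 genes, His3.3B, asf1, Caf1-180 and Caf1-105, and for 20.9% of all genes. They were above for 0 of the 9 and for 2.51% of all. The mutant libraries had 10595 and 7122 peaks against 11432 and 9998 in the controls, and replicate 2, with the shortest list, had a promoter peak at 3 of the 9 genes against 5 in replicate 1. With the 7122 widest peaks of each library, 3 of the 4 genes stayed below, all but His3.3B. Leaving out mutant replicate 1 made His3.3A and His3.3B lost (2 genes), and leaving out mutant replicate 2 made asf1 lost (1 gene). XNP was lost without control replicate 1. The X chromosome held 18.8 and 19.5% of the peaks of the late mutants and 14.5 and 14.4% of those of the controls. In the early libraries of the HIRA set it held 19.4 and 18.2% in the controls and 20.8 and 20.4% in the mutants. A high share on the X was thus also present in wild-type libraries. Among the 4 genes, His3.3B and Caf1-180 are on the X and the other two on autosomes.

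In the dPCIF1 comparison the genes split. A peak in both controls and neither mutant was found for 1 gene, His3.3A, and for 0.745% of all genes. The reverse was found for 2, yem and Caf1-55, and for 6.79% of all. Both mutants were below both controls for 2 genes, Hira and His3.3A (2.67% of all), and above for 5, yem, His3.3B, XNP, Caf1-105 and Caf1-55 (22.5% of all). The mutant lists were longer, with 9774 and 11347 peaks against 7534 and 7814. When each library was held to its 7534 widest peaks, an alternative chosen after seeing the data, the genes lost were 2, Hira and His3.3A, and those gained were 0. This kept every peak of control replicate 1 and left out narrow peaks of the mutants. Among those left out were the 201 bp Hira peak of mutant replicate 2 and both yem peaks. The share of all genes in that setting was not counted. His3.3B, XNP and Caf1-105 stayed above in that setting (3 genes). In a window of 250 bp either side of the start, yem and His3.3B were no longer above (72.5 bp for His3.3B, exact permutation test, p = 1), and asf1 was, which gave 4 genes. The asf1 call rests on 4 and 27 bp in the mutants against 0 in both controls, the edge of peaks centred outside that window. With the early HIRA controls as reference, the lost genes were 0 and those below were 0, and Caf1-105 was no longer above (101.5 bp, exact permutation test, p = 0.667). Without control replicate 1 the gained genes were 4, adding asf1 and XNP, and without mutant replicate 2 Hira joined His3.3A among the lost (2 genes).

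From 0.5 to 1.5 h to 2 to 3 h, promoter coverage in the HIRA controls was higher in both late libraries than in both early ones for 4 genes, His3.3B, asf1, Caf1-180 and Caf1-105, and for 26.2% of all genes. It was lower for 0 of the 9 (0.208% of all). No gene went from neither early control to both late ones (9.19% of all genes) or the other way (0.0430% of all). The largest differences were 709.5 bp for asf1 and 655.5 bp for His3.3B (exact permutation test, p = 0.333 each). In the HIRA mutants, 2 genes, Caf1-180 and Caf1-105, had no peak in either early library and one in both late libraries (11.4% of all). The same 2 were the only ones higher in both late libraries (18.4% of all). None was lower (0.0215% of all) or lost (0.00716% of all). The stage differences of the mutants were 313 bp for Caf1-180 and 293 bp for Caf1-105. Without replicate 2 of the late mutants 5 genes were gained, Hira, His3.3A and His3.3B being added. With the widest peaks of the 4 control libraries in equal number, a setting added after seeing the data, His3.3B was no longer higher (-106 bp). With the 1505 widest peaks of each library none of the 9 was higher in either genotype, and Caf1-180 was lower in the late controls (-474.5 bp). The narrowest peaks kept were 418 and 468 bp wide in the early controls and 685 and 659 bp in the late ones. The Caf1-180 peaks of the late controls, 508 and 530 bp wide, were thus left out, although they were wider than the early ones (451 and 498 bp).

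When the peaks of both replicates had to overlap by at least 20% of each, Caf1-180 and Caf1-105 had a replicated promoter region in every group except the early HIRA mutants. The early HIRA controls had these 2 genes only (13.8% of all genes had such a region), the early HIRA mutants 0 (2.75%) and the late HIRA mutants the same 2 (18.7%). The late HIRA controls had 5, with His3.3A, His3.3B and asf1 added (30.6%). The dPCIF1 controls also had 5, with Hira, His3.3A and His3.3B (20.8%). The dPCIF1 mutants had 7, all but Hira and His3.3A (31.7%). His3.3A was thus replicated in the dPCIF1 controls and the late HIRA controls, although not in the latter when an overlap of 50% was required, which left 4 genes there. Hira was replicated in the dPCIF1 controls alone.

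Other histone chaperone, remodeller and histone variant genes were read in the same way, 17 of which were found in the annotation. In the early libraries, 5 and 7 of them had a promoter peak in the HIRA controls against 1 and 2 in the mutants of that set. There were 9 and 9 in the dPCIF1 controls and 10 and 13 in the dPCIF1 mutants. The shares of all genes in these libraries are those given above. In early HIRA mutants 4 of the 17 were lost (7.81% of all genes), the transcription elongation chaperone Spt6 (566 and 390 bp in the controls, 0 in both mutants), Dek (231 and 352 bp), the H3 chaperone gene Nasp (463 and 267 bp) and the remodeller gene Acf (399 and 245 bp). At 2 to 3 h the lost genes were also 4 (6.90% of all genes), Nap1, an H2A-H2B chaperone gene (320 and 448 bp in the controls), Daxx (292 and 221 bp), and the neighbours Nlp and Nph, whose windows gave the same values (205 and 445 bp). Both late mutants were below both controls for 9 of the 17 (20.9% of all genes). In the dPCIF1 comparison 0 were lost and 0 gained (0.745 and 6.79% of all genes), while 10 were above and 0 below (22.5 and 2.67% of all genes). None of the 17 was thus lost or below there. At shares of 0.745 and 2.67% of all genes, that does not set Hira and His3.3A apart. From early to late, Nap1, Daxx and the remodeller gene Chd1 were gained in the controls and Dek, Nasp and Acf in the HIRA mutants (3 each, 9.19 and 11.4% of all genes). The genes dre4, cal1 and BigH1 had no promoter peak in any library.

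Over the 12 libraries, the coverage of each of the 3 genes Hira, His3.3A and His3.3B was set beside that of every gene with no start within 2 kb. The genes most like His3.3A were mute, Ufm1 and kuk (Pearson r = 0.89, 0.89 and 0.88). Those most like Hira were CG10809, Lsp1gamma and CG18467 (r = 0.94, 0.93 and 0.92), each with a peak in 5 libraries, and those most like His3.3B were eIF4A, Actn and CG11123 (r = 0.95 each). These are descriptions over libraries that share stage, genotype and list length. The number of peaks in a library itself had r = 0.36 with His3.3A, 0.61 with Hira and 0.76 with His3.3B. Coverage of His3.3B thus followed the length of the lists most closely of the 3, and that of His3.3A least. The promoter of Pcif1 (FBgn0037021), the gene whose maternal product the dPCIF1 mutants lacked, was covered by 512 and 506 bp in the dPCIF1 controls and 462 and 451 bp in the dPCIF1 mutants, so the mutants lay slightly below and kept the peak.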

How the data were processed

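The libraries and groups are those described above. Per the study's methods, the authors trimmed the reads with Trimmomatic 0.39, mapped them to dm6 with Bowtie2 2.2.5, removed duplicate, low-quality and non-unique reads with sambamba and SAMtools 1.18, and called peaks in each library with MACS2 2.2.7.1. The handling of the transposase offset was not given in the sources used here. The deposited lists hold the chromosome, start and end of each peak and carry neither heights nor read counts. A peak is therefore present or absent and has a width. A shallower library would give fewer and narrower peaks.

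Genes came from the Ensembl release 115 annotation of the same assembly, and sequences from the RefSeq Release 6 genome. Promoter windows reached 1 kb either side of each TSS. A gene was called lost when both controls and neither mutant had a peak in the window, gained in the reverse case, and below or above when the coverage of the groups did not overlap. All main calls were made on 13968 genes and read against their share, while the alternatives were counted for the 9 genes only. Differences in coverage were tested by exact two-sided permutation over libraries, which are separate pools per the study's methods. Nothing was adjusted for multiple tests, since none could pass 0.05. Of 19 other names sought, DLP and CG8223 are older names and were left for Daxx and Nasp. The genes named beyond the 9 were those lost or gained in a comparison and, for Hira, His3.3A and His3.3B, the 3 with the highest r. The genes, lists and rules were chosen with earlier results of these data known. Alternatives were a window of 250 bp, equal numbers of widest peaks, an overlap of 50% or none, full peak width, width percentile, the other early wild-type set, each replicate left out, and the replicate number as a block. Python 3.11.15, numpy 2.4.6, scipy 1.17.1 and matplotlib 3.10.9 were used.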

Additional observations from a re-analysis of the deposited data

Results flagged for a closer look

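Caf1-105 and His3.3B moved in opposite directions in the late HIRA and the dPCIF1 mutants. In each set both mutants lay on the same side of both controls. For Caf1-105 the mean promoter coverage differed by -425.5 bp in early and -450 bp in late HIRA mutants and by 153.5 bp in dPCIF1 mutants. For His3.3B it differed by -653 bp in late HIRA mutants and by 148.5 bp in dPCIF1 mutants (31 bp without mutant replicate 2). The early HIRA groups overlapped for His3.3B. Of all genes, 13.0% lay below in early and 20.9% in late HIRA mutants, and 22.5% lay above in dPCIF1 mutants. In dPCIF1 mutants, Caf1-105 overlapped the controls when the other early wild-type set was used (101.5 bp, exact permutation test, p = 0.667), and His3.3B did so in the 250 bp window (72.5 bp, exact permutation test, p = 1). The difference between the comparisons was not tested. The lists of the HIRA mutants were shorter, on average, and those of the dPCIF1 mutants longer than the lists of their controls, and the part of list length was not tested.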

How the results depend on the processing

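Of the counts of genes recomputed under the alternatives, 164 stayed within 1.5 times the reported count and 44 did not. Lost and gained counts by full peak width and by width percentile could not change, since both are above 0 only where a promoter peak is present. For early HIRA mutants and for HIRA mutants from early to late, both widest-peak settings kept 1505 peaks. Their counts and differences therefore enter the totals here and below 2 times. Using the 1505 widest peaks of each library left 1 gene (Caf1-180) with a replicated region in the early HIRA controls, 1 lost and below in early HIRA mutants, 1 lost and below from early to late controls, and 0 for the other counts that changed. Held to the widest peaks within a comparison, a choice made after seeing the data, the counts were 1 lost and 1 below in early HIRA mutants, 2 lost, 0 gained and 3 above in dPCIF1 mutants, and 0 gained and 0 above from early to late HIRA mutants. With the other early wild-type set, 5 were lost and 5 below in early HIRA mutants, and 0 lost and 0 below in dPCIF1 mutants. The 250 bp window made asf1 lost in late HIRA mutants (1 gene) and kept the gained count of the dPCIF1 mutants at 2, with asf1 in place of yem. That gain of asf1 rests on 4 and 27 bp at the edge of its peaks. Leaving out a replicate leaves 1 library in a group, so that nothing can be replicated, and the library left had a promoter peak at 3 to 4 genes in the early HIRA controls and at 3 to 5 in the late HIRA mutants. The same step gave 2 to 4 lost and 2 to 4 below in early HIRA mutants, 0 to 2 lost in late HIRA mutants, 1 to 2 lost and 2 to 4 gained in dPCIF1 mutants, 1 to 2 gained from early to late controls, and 2 to 5 gained and 2 to 5 above from early to late mutants. The recomputed differences in coverage numbered 328, of which 34, from the replicate block, repeat the main value and could not turn. The sign turned in 8 of the 328. These were Hira and Caf1-180 in dPCIF1 mutants with the other wild-type set (100.5 and -62.5 bp), Caf1-180 there without mutant replicate 2 (-0.5 bp), Hira in late HIRA mutants without control replicate 1 (119 bp) or mutant replicate 2 (39.5 bp), and, from early to late controls, Caf1-180 in the 250 bp window (-3 bp) and with the 1505 widest peaks (-474.5 bp) and His3.3B with the widest peaks within the comparison (-106 bp). With the 1505 widest peaks, the late-control peaks of Caf1-180 were narrower than the narrowest peak kept there and were left out. The cause of the other changes was not tested.

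The replicate numbers did not pair the libraries, the correlation of replicate differences over 13968 genes being -0.10 to 0.05. With the replicate number as a block, the smallest p an exact sign-flip test can give is 0.5. The 34 differences that were not 0 therefore could not cross the threshold. A gene without a peak was not detected as accessible at an unknown depth, which does not show that it was closed.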
